A study of Mus musculus with 3 samples.

Results

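The Ifi200 genes described here are 5 interferon-inducible genes of the mouse HIN-200 (PYHIN) family: Ifi202b, Ifi203, Ifi204, Ifi205 and Ifi207. They were taken by symbol from the 32285 genes counted in 3 single-cell RNA-seq libraries of mouse back skin. The 5 genes gave 223905 of the 263426549 transcript counts in the cells kept. The members were chosen by their symbols after Ifi202b was measured low in knockout keratinocytes of these libraries. The Ifi202b difference between knockout and control keratinocytes is therefore given as a description, with no test.

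HIN-200 proteins carry a HIN domain that binds DNA, and most also carry a pyrin domain through which they contact other proteins. The genes lie side by side on chromosome 1 and respond to type I and type II interferons. Aim2, a member of the family, senses DNA in the cytosol and starts an inflammasome, the complex that activates caspase-1. Ifi202b encodes p202, which has HIN domains but no pyrin domain, binds DNA and restrains Aim2. Ifi204 encodes p204, a mouse relative of human IFI16, and takes part in DNA sensing and macrophage differentiation. In the epidermis, basal keratinocytes divide on the basement membrane, suprabasal cells differentiate above them, and the hair follicle bulge holds stem cells.

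Piezo1 encodes a stretch-activated ion channel, and its floxed alleles are removed here by a tamoxifen-dependent Cre under the keratin 5 promoter, which is active in basal epithelial cells. All 3 libraries came from the strain labelled C57BL/6 and from animals injected with tamoxifen from P48 to P52 (postnatal days). The control library, genotype K5-Cre-er/Piezo1fl/+/Tdfl/+, was taken at P62 and carried 1 floxed Piezo1 allele. The 2-week knockout library, K5-Cre-er/Piezo1fl/fl/Tdfl/+, was also taken at P62. The 3-week knockout library, K5-Cre-er/Piezo1fl/fl/Tdfl/fl, was taken at P71 and had no control library of its own age. Its age and its second floxed Td allele cannot be told apart from the longer time after tamoxifen. Each group was 1 library, so no spread between animals could be estimated and no p-value is given. All intervals below are 95% intervals that cover counting error only, and both knockout comparisons share the 1 control library.

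The 3 libraries gave 4912 control, 9585 2-week and 9599 3-week cells after filtering, with medians of 9989, 7506 and 8768 unique molecular identifiers (UMIs, each standing for 1 captured transcript) per cell. Libraries shared 17 to 29 cell barcodes, at most 0.356% of a library. Clustering gave 34 clusters, and 26 of them were named from marker genes; the names are rebuilt and carry the suffix "-like". Cluster 3 and cluster 4 together made up the interfollicular basal-like class. Piezo1 itself was measured at 34.7, 27.7 and 15.1 CPM (counts per 1000000 UMIs summed over the cells in question) in epithelial cells of the control, 2-week and 3-week libraries. It was also lower in non-epithelial cells, at 62.03, 50.1 and 36.7 CPM. A count at the 3′ end can lie outside the deleted part, so these values do not check the genotype.

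Windows around 4 transcription starts were chosen because the members differ in a motif that interferon-activated factors bind. Each window runs from 250 bases before to 50 bases after an annotated start, on the minus strand of GRCm38 chromosome 1, from RefSeq (GRCm38.p6), and is printed 5′ to 3′ in the direction of the gene. Capitals mark 3 motifs searched on both strands: the interferon-stimulated response element (ISRE, GAAANNGAAA), the gamma-activated site (GAS, TTCNNNGAA) and the AP-1 site (TGANTCA). The windows were chr1:173982795-173983094 for Ifi202b, chr1:173942443-173942742 for the second annotated start of Ifi203, chr1:174031706-174032005 for Ifi205 and chr1:173741760-173742059 for Ifi207.
Ifi202b: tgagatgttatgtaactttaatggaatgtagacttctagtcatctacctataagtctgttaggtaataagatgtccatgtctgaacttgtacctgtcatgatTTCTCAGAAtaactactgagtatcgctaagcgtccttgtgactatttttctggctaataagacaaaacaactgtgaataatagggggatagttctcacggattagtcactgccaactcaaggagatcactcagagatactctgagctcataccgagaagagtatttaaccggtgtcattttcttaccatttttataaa
Ifi203: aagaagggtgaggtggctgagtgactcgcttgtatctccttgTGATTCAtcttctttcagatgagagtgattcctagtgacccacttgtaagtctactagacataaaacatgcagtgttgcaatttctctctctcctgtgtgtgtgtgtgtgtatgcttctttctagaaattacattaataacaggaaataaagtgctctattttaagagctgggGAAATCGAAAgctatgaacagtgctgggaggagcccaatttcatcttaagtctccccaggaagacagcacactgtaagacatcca
Ifi205: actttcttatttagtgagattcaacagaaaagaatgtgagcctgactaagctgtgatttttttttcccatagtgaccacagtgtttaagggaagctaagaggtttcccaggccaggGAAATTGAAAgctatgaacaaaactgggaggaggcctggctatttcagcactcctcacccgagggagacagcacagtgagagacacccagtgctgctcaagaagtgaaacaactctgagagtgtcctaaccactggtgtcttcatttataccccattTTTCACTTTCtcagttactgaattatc
Ifi207: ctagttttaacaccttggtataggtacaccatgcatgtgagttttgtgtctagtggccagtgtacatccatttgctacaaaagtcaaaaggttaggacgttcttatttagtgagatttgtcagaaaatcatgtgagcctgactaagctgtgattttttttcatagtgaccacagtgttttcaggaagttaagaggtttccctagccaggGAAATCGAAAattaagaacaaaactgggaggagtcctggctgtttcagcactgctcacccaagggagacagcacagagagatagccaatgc

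Ifi204 had no entry in the promoter table. The Ifi203, Ifi205 and Ifi207 windows each held an ISRE. In Ifi207 it was GAAATCGAAA, starting 41 bases before the start. In Ifi203 the same letters began 35 bases before the start. Ifi205 held GAAATTGAAA 134 bases before the start and TTTCACTTTC, an ISRE on the opposite strand, 23 bases after it. The Ifi202b window held no ISRE and no AP-1 letters, and a single GAS, TTCTCAGAA, 148 bases before the start. The first annotated start of Ifi203 had no ISRE in its window. ISRE letters were present in 10 of 14 windows of the 12 family genes in the table, against 3.44% of 32851 windows of the same length genome-wide. GAS letters were in 8.30% and AP-1 letters in 7.81% of all windows. A match is a description of letters, and its absence says only that these letters are not in this window. Between the 4 members with an entry the windows were 47.7% to 60.3% identical. The Ifi202b window was at most 58.3% identical to that of any other family gene, while the Ifi203 window shown was 94.0% identical to that of Mndal.

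All 5 members are on the minus strand of chromosome 1 (GRCm38, GENCODE vM21). Ifi207 (ENSMUSG00000073490) spans 173723427 to 173741747 and Ifi204 (ENSMUSG00000073489) 173747293 to 173766943. Ifi203 (ENSMUSG00000039997) spans 173920407 to 173942672, Ifi202b (ENSMUSG00000026535) 173962568 to 173982744 and Ifi205 (ENSMUSG00000054203) 174011998 to 174031810. Because the libraries count transcript 3′ ends, the last 500 bases of each gene's transcripts were searched for 50-base stretches that occur in transcripts of other genes. Ifi202b shared 0 of 451 stretches, Ifi203 1.11%, Ifi204 2.22% and Ifi207 3.54%. Ifi205 shared 79.2% of its stretches with Ifi211 and Mndal, so its counts are uncertain and are given beside those genes. The exons of Ifi203 overlap those of Mndal by 37 bases on the same strand. Mouse strains are known to differ at Ifi202b, and C57BL/6J is known to carry a deletion that takes in its first exon; the animals' own sequence at this locus was not analysed here. The labels name no substrain, so an Ifi202b difference between libraries cannot be told apart from a difference between the animals at this locus. The window printed above is that of the reference genome, which was built from C57BL/6J. It may not be the start region of the Ifi202b transcripts counted here. The motif difference between Ifi202b and the other members thus describes the reference genome only.

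The members divided by cell type. Ifi202b was a keratinocyte transcript, with 98.7% of its 212004 UMIs in epithelial cells. Ifi203 was split, with 47.6% of 5269 UMIs in epithelial cells. Ifi204 had 18.8% of 2503, Ifi207 4.498% of 2846 and Ifi205 2.96% of 1283 UMIs there. The last 3 genes were thus counted mostly outside epithelial cells. Across the 21 class-by-library points of the 7 classes with at least 100 cells in each library, Ifi202b and Ifi203 had a Pearson r of 0.02 on log2 levels. The r of Ifi202b with Ifi204, Ifi205 and Ifi207 was -0.37, -0.36 and -0.45. These are descriptions over points that share libraries and depth.

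Ifi202b levels followed the epidermal compartment. In the control library they were 3626 CPM in interfollicular basal-like cells, 1855 in cycling keratinocytes and 1832 in suprabasal-like cells. Upper hair follicle-like cells had 1038, sebaceous gland-like cells 362 and bulge-like cells 19.6. The bulge, a keratin 5 territory like the basal layer, was thus the epithelial class with the lowest level in each library. The intervals of the cycling (1812 to 1899) and suprabasal-like (1805 to 1858) levels overlapped, and the other neighbours in that order did not overlap. In the 2-week library the same order held, with 1358 in basal-like, 823.5 in cycling, 593 in suprabasal-like, 394 in upper hair follicle-like, 199 in sebaceous gland-like and 9.08 in bulge-like cells. In the 3-week library suprabasal-like cells (510) came before cycling cells (465), between basal-like cells (853) and upper hair follicle-like cells (339). Sebaceous gland-like cells had 115 and bulge-like cells 17.0 there.

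**Figure D1:**
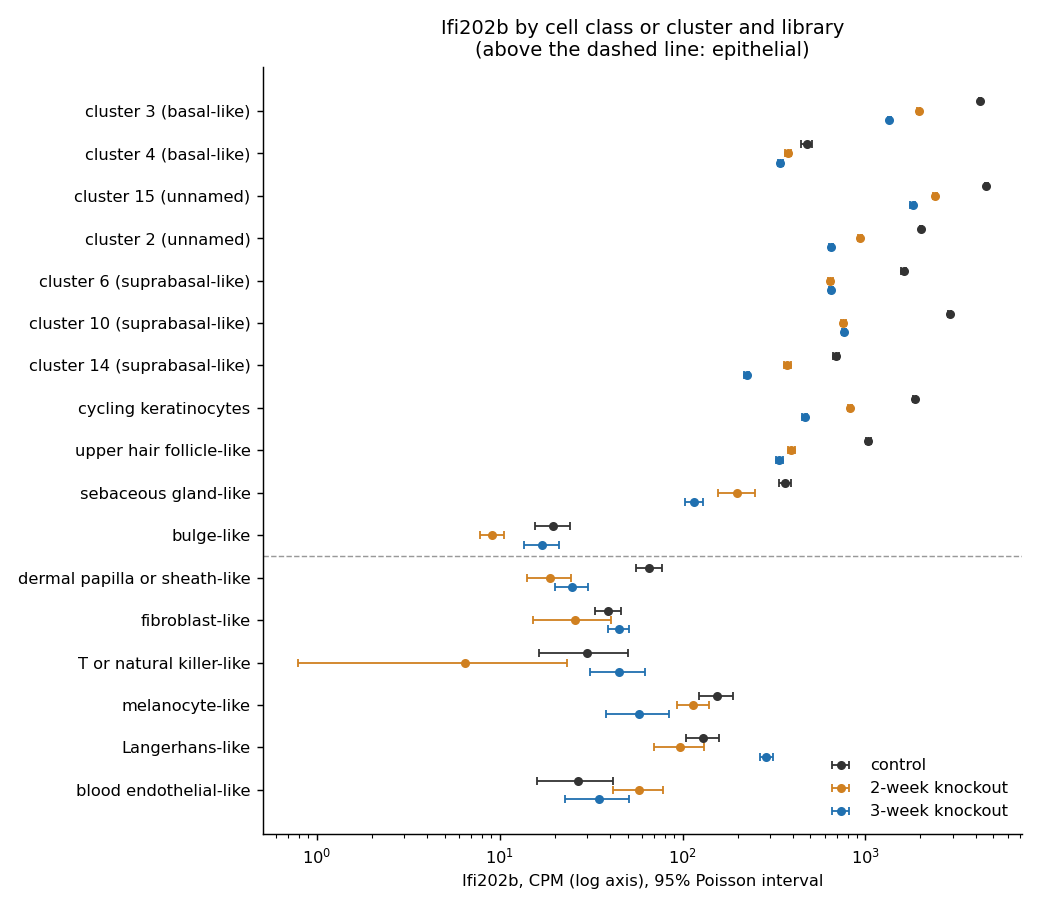
Ifi202b in each cell class or cluster, in CPM on a log axis; each point is 1 library (control black, 2-week knockout orange, 3-week knockout blue) and bars are 95% Poisson intervals. In clusters 2, 3, 15, 6, 10 and 14 the control point lies to the right of both knockout points; in cluster 3 the 3 points are at 4240, 1952 and 1353, and bulge-like cells lie under 20.

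In epithelial cells as a whole Ifi202b was 2019 CPM in the control, 651 in the 2-week and 585 in the 3-week library. The ratio to control was 0.323 (0.319 to 0.326) at 2 weeks and 0.290 (0.287 to 0.293) at 3 weeks. Bulge-like cells, the class lowest in Ifi202b, were 536 of 3289 epithelial cells in the control. They were 3021 of 8446 at 2 weeks and 875 of 6906 at 3 weeks. The part of this mix in the epithelial ratios was not tested. In basal-like cells the ratios were 0.374 (0.368 to 0.381) and 0.235 (0.231 to 0.239), or 2.67-fold and 4.25-fold lower. From the 2-week to the 3-week library the basal-like level went from 1358 to 853, a ratio of 0.629 (0.617 to 0.641). Ifi202b was the member with enough counts to be ranked in basal-like cells, where ranking asked for 50 UMIs over both libraries and 50 CPM in 1 of them. It was at least 1.5-fold lower in both comparisons, as were 6.15% of ranked genes at 2 weeks and 15% at 3 weeks. It stood 8th from the lowest of 2814 ranked genes at 2 weeks and 12th of 2837 at 3 weeks. These ranks describe the contrast through which the gene was chosen.

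The basal-like class held 2 clusters with very different Ifi202b levels. Cluster 3, led by Epgn, an epidermal growth factor receptor ligand, Tslp, an epithelial cytokine, Itga2 and Ifi202b itself, had 4240, 1952 and 1353 CPM in the control, 2-week and 3-week libraries. Cluster 4, led by Fbxo32, Ndufa4l2 and Krt14, had 478, 379 and 342. The ratios to control were 0.460 and 0.319 in cluster 3, against 0.793 (0.733 to 0.858) and 0.716 (0.666 to 0.771) in cluster 4. Ifi202b helped to define cluster 3, so the contrast between the clusters is no finding.

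The mix of these clusters also differed between libraries. Cluster 3 made up 77.7% of basal-like cells in the control (579 of 745), 55.6% at 2 weeks (822 of 1478) and 46.8% at 3 weeks (878 of 1876). It gave 97.8%, 89.5% and 80.2% of the Ifi202b UMIs of the class. With both clusters given the same weight in every library, the basal-like ratios were 0.494 and 0.359. The part of the mix in the class ratios was not tested beyond these values. Counted from the lowest ratio, Ifi202b stood at 289 of 2907 and 254 of 2860 ranked genes in cluster 4, and at 14 of 2757 and 18 of 2775 in cluster 3.

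Single cells showed the same shift across the whole of cluster 3. The median cell held 3865.5 CPM in the control, 1607 at 2 weeks and 1071 at 3 weeks. The 10th to 90th percentiles ran from 1037 to 7867 in the control, from 360 to 4046 at 2 weeks and from 260 to 2732 at 3 weeks. Ifi202b UMIs were found in 99.3%, 98.7% and 97.8% of these cells, so nearly every cell still held the transcript. After thinning each cell to 2000 UMIs the shares were 96.5%, 87.4% and 81.7%. The T or natural killer-like class is not known for this gene, and 11.4%, 2.20% and 7.39% of it held a UMI, at median depths of 4164, 3296 and 3654 UMIs against 14904, 11155 and 12370 in basal-like cells. In cluster 4 the cell medians were 136, 129 and 158 CPM, with UMIs in 65.1%, 62.2% and 68.4% of cells.

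**Figure D2:**
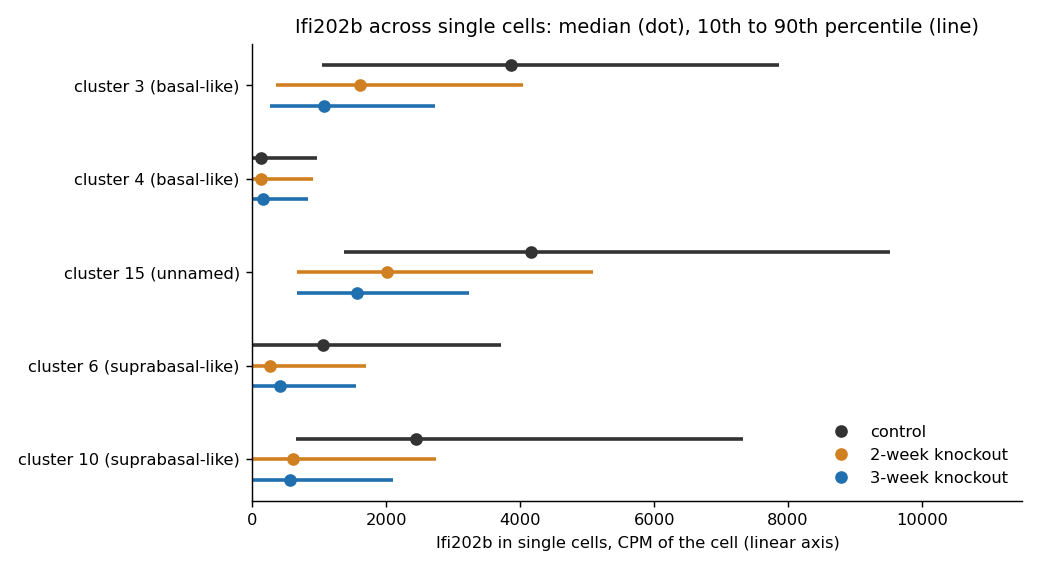
Ifi202b in single cells of 5 keratinocyte clusters, in CPM of each cell on a linear axis; dots are medians over cells and lines run from the 10th to the 90th percentile. In cluster 3 the control median (3865.5) lies above the 2-week (1607) and 3-week (1071) medians, while the 3 cluster 4 medians lie between 129 and 158.

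The keratinocyte clusters outside the basal-like class gave the same direction. Cluster 15, an unnamed epithelial cluster led by Il33, an alarmin, Krt16, a stress keratin, and Ifi202b, had 4587, 2411 and 1811 CPM, with ratios of 0.526 and 0.395. Cluster 2, led by Fst and Aldh3a1, had 2013, 933 and 646, with ratios of 0.463 and 0.321. Cycling keratinocytes had ratios of 0.444 (0.428 to 0.461) and 0.251 (0.240 to 0.261), where 4.94% and 10.6% of ranked genes were at least 1.5-fold lower. In the upper hair follicle-like class the ratios to control were 0.3795 (0.359 to 0.401) and 0.326 (0.309 to 0.344), with 6.93% and 12.5% of ranked genes as low. In sebaceous gland-like cells, 19 cells at 2 weeks, the ratios were 0.550 and 0.319.

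The suprabasal-like class gave ratios of 0.324 (0.316 to 0.331) at the earlier and 0.279 (0.273 to 0.284) at the later time, against a background of 7.44% and 9.85% of ranked genes at least 1.5-fold lower. Ifi202b was 5th from the lowest of 2809 genes at 2 weeks and 15th of 2822 at 3 weeks. Its 3 clusters differed in the course from 2 to 3 weeks. Cluster 10, led by Krt1, Mt4 and Krt10, had 2890, 757 and 763 CPM, and cluster 6, led by Mt4, Krt1 and Zfp750, had 1622, 641 and 650. In both the 2 knockout libraries were close together. Cluster 14, led by Lor and Lce1m of the cornified layer, had 690, 374 and 224. Cluster 10 held the most suprabasal-like cells in the control (160 of 354), and cluster 6 in the 2-week (560 of 917) and 3-week (785 of 1436) libraries.

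In bulge-like cells Ifi202b was 19.6, 9.08 and 17.0 CPM, with UMIs in 12.9%, 3.81% and 6.17% of cells. The 2-week ratio was 0.464 (0.356 to 0.609) and the 3-week ratio 0.869 (0.635 to 1.19), with an interval that includes 1. The shares of bulge-like cells with a UMI were close to those of the T or natural killer-like class, at median depths of 8097.5, 6492 and 5582 UMIs, and are read as background.

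Outside the epithelium Ifi202b UMIs were few. Non-epithelial cells had 85.0, 48.7 and 74.7 CPM, lowest at 2 weeks. Their keratin level was higher in both knockout libraries than in the control: these cells held keratin transcripts, summed over 6 keratin genes, at 1196, 2595 and 2925 CPM. For every 1000 keratin UMIs there were 122, 36.0 and 27.4 Ifi202b UMIs in epithelial cells of the 3 libraries, and 71.1, 18.8 and 25.5 in non-epithelial cells. Dermal papilla or sheath-like cells had 65.4, 18.8 and 24.9 Ifi202b CPM, and 71 of the 149 control UMIs came from 1 cell. Fibroblast-like cells had 39.1, 25.7 and 44.7, with ratios whose intervals include 1.

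Langerhans-like cells had Ifi202b at 129, 97.0 and 288 CPM, above the control at 3 weeks and not at 2 weeks. The 3-week ratio was 2.23, and 0.989 with no doublets removed. In the control 49 of the 91 UMIs came from 1 cell. Their keratin counts were 2062, 3964 and 9184 CPM, and their suprabasal markers, 10 genes summed, were 3714, 2357 and 13167. For every 1000 keratin UMIs they held 62.6, 24.5 and 31.3 Ifi202b UMIs. The part of keratinocyte RNA in these levels was not tested. In blood endothelial-like cells Ifi202b was 26.7, 57.9 and 34.9, and 38 of the 41 UMIs at 2 weeks came from 1 cell, without which the level was 4.42.

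Ifi203 was highest in blood endothelial-like cells, a class of 75, 94 and 104 cells. It was measured at 318 CPM in the control, 526 at 2 weeks and 331 at 3 weeks, with UMIs in 70.7%, 74.5% and 67.3% of cells. The 2-week ratio was 1.65 (1.40 to 1.96) and the 3-week ratio 1.04 (0.865 to 1.25). Of the T or natural killer-like class, 3.81%, 2.20% and 0.985% held an Ifi203 UMI, at median depths of 4164, 3296 and 3654 against 7115, 5214 and 5838 in the endothelium. The endothelial shares thus stood far above that background. The 6 endothelial markers summed to 4095, 3919 and 4026 CPM, and the 8 fibroblast markers in these cells to 3082, 1551 and 1385.

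The endothelial counts do not give a direction for the family. All 5 members were ranked there at 2 weeks: 3 (Ifi202b, Ifi203 and Ifi207) were at least 1.5-fold higher and 1 (Ifi205) lower, against 8.95% and 6.96% of ranked genes. Ifi202b and Ifi207 reached the minimum level of 50 CPM in the 2-week library alone, and Ifi205 in the control alone. A gene ranked through 1 library is more likely to be called higher in it, so these counts are a description only. Ifi203 and Ifi204 reached the minimum in both libraries, and of them Ifi203 alone was at least 1.5-fold higher. The Ifi202b value rests on the 1 cell named above, and all 58 control UMIs of Ifi205 came from 1 of 75 cells. Ifi207 went from 36.5 to 60.8 and then 32.2 CPM, with a 2-week ratio of 1.67 (1.0005 to 2.82). Ifi204 had 89.8, 110 and 73.8, with ratios of 1.23 (0.871 to 1.74) and 0.822 (0.562 to 1.20). Mndal had 283, 343 and 252. At 3 weeks 1 of 3 ranked members was lower, Ifi205 with 0 UMIs, where 10.8% of ranked genes were. Ifi205 was again ranked through its control level alone.

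Among keratinocytes Ifi203 was concentrated in cluster 4, the basal-like cluster poor in Ifi202b. There it was 137 CPM in the control, 73.4 at 2 weeks and 18.1 at 3 weeks, with UMIs in 20.5%, 14.8% and 7.92% of cells. The ratios were 0.535 (0.458 to 0.626) and 0.132 (0.109 to 0.159), or 1.87-fold and 7.60-fold lower. The level at 3 weeks was 0.246 (0.208 to 0.290) of that at 2 weeks. Of the 2 members ranked in cluster 4, Ifi203 was at least 1.5-fold lower in both comparisons and Ifi202b in neither, against 1.96% and 5.17% of ranked genes. Ifi203 reached the minimum level in the control library alone in the 3-week comparison.

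Cluster 3 held less Ifi203, at 22.3, 13.8 and 2.97 CPM. Its ratios were 0.618 (0.497 to 0.768) and 0.133 (0.0907 to 0.190). Over the basal-like class the levels were 41.1, 36.3 and 10.4, with ratios of 0.884 (0.782 to 0.9997) and 0.254 (0.217 to 0.297). The class ratio at 2 weeks lay above the ratio of either of its clusters, beside the larger share of cluster 4 cells in that library. In suprabasal-like cells Ifi203 was 9.52, 15.2 and 5.90 CPM, with ratios of 1.60 (1.27 to 2.03) and 0.620 (0.484 to 0.799). Both directions turned under another setting: the 2-week ratio was 0.697 at clustering resolution 2, and the 3-week ratio 1.77 after thinning to 2000 UMIs. The 2-week value came mainly from cluster 6, at 20.6, 39.7 and 13.1, and 57 of 294 class UMIs came from 1 cell. In cluster 14 it was 10.9, 2.07 and 2.49. Bulge-like cells held 1, 5 and 3 Ifi203 UMIs in all.

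Fibroblast-like cells expressed Ifi203, Ifi204, Ifi205 and Ifi207, and all 4 were lowest in the 2-week library. They numbered 423, 114 and 810 cells, at median depths of 8786, 4984.5 and 5770 UMIs. Ifi203 was 154, 32.8 and 102 CPM, Ifi204 170, 51.4 and 93.4, and Ifi207 121, 49.9 and 102. Ifi205 was 186, 24.3 and 67.6. The 2-week values rest on 23, 36, 35 and 17 UMIs for Ifi203, Ifi204, Ifi207 and Ifi205.

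The 2-week ratios were 0.213 (0.134 to 0.322) for Ifi203, 0.302 (0.210 to 0.423) for Ifi204, 0.130 (0.0754 to 0.210) for Ifi205 and 0.411 (0.283 to 0.580) for Ifi207. The 3-week ratios were 0.658 (0.584 to 0.742), 0.550 (0.488 to 0.619), 0.363 (0.318 to 0.413) and 0.841 (0.741 to 0.955) in the same order. At 2 weeks Ifi203, Ifi205 and Ifi207 reached the minimum level in the control alone. A gene ranked through its control level is more likely to be called lower, so a 2-week count of lower members is not given. Ifi204 reached the minimum in both libraries and was at least 1.5-fold lower, as were 8.15% of ranked genes. At 3 weeks all 4 members reached the minimum in both libraries, and 3 of 4 were at least 1.5-fold lower, against 6.25% of ranked genes. Of the 6 ranked genes of the wider family, 4 reached the minimum level in the control alone at 2 weeks, and 1 at 3 weeks.

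Fibroblast-like cells of the 3 libraries also differed in make-up. Their 8 fibroblast markers summed to 96053, 55772 and 57423 CPM, and the 10 suprabasal markers in them to 167, 1547 and 956. The macrophage markers, 8 genes, summed to 27.9, 7.13 and 20.6. Cluster 9, led by Col1a2, Col1a1 and Dcn, made up 242 of the 423 control, 40 of the 114 2-week and 521 of the 810 3-week cells. Within cluster 9 alone Ifi203 was 195, 51.4 and 144, Ifi204 199.8, 75.1 and 116, Ifi205 277, 63.2 and 99.6, and Ifi207 156, 98.8 and 150 CPM. The 2-week library was again the lowest for each. The part of other cells' RNA in these levels was not tested.

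Ifi205 is reported to affect transcription of Pycard, the inflammasome adaptor. Here it was counted mainly in fibroblast-like cells and cluster 24, an unnamed cluster led by Lyz2, Ccl8 and Il1b. Its similar neighbours were lower in knockout fibroblast-like cells too: Ifi211 had 122, 32.8 and 39.8 CPM, with ratios of 0.269 and 0.326, and Mndal had 143, 52.8 and 97.5, with ratios of 0.368 and 0.680. Of the Ifi205 UMIs at 2 weeks 8 of 17 came from 1 cell, without which the level was 12.9. In basal-like cells Ifi205 had 6, 3 and 2 UMIs.

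**Figure D3:**
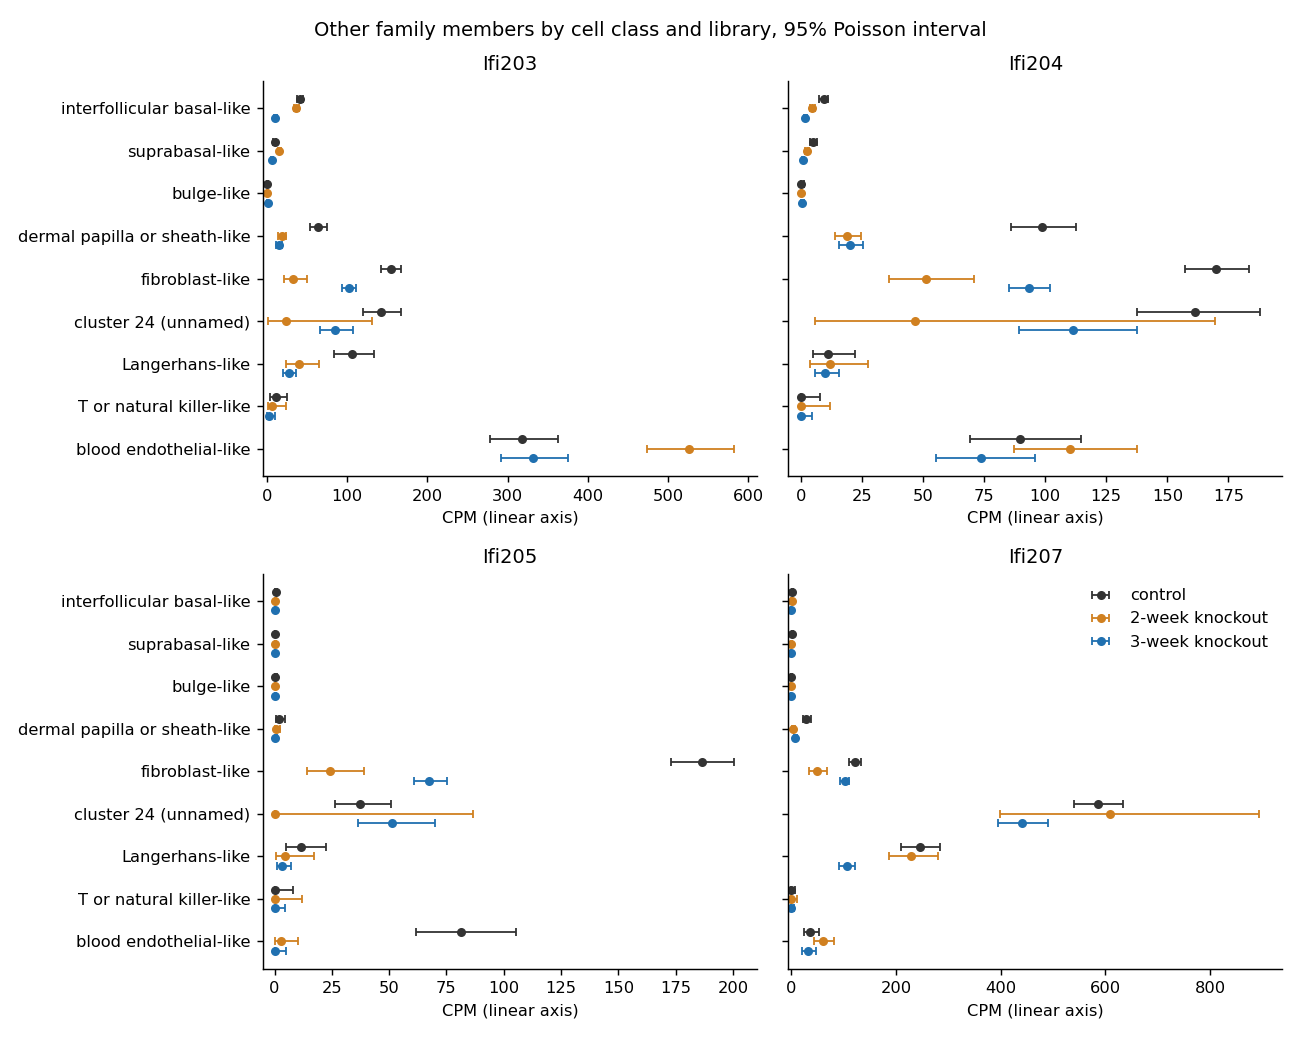
Ifi203, Ifi204, Ifi205 and Ifi207 in 9 cell classes or clusters, in CPM on linear axes that differ between panels; each point is 1 library (control black, 2-week orange, 3-week blue) with its 95% Poisson interval. Ifi203 peaks in blood endothelial-like cells (318, 526 and 331) and Ifi207 in cluster 24 (585, 610 and 441), whose 2-week point rests on 7 cells.

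Dermal papilla or sheath-like cells numbered 413, 460 and 842, and here both knockout libraries were low. Ifi204 was 98.7, 18.8 and 20.2 CPM, with ratios of 0.191 (0.139 to 0.257) and 0.205 (0.155 to 0.268). Ifi203 was 63.6, 18.2 and 14.5, with ratios of 0.285 (0.204 to 0.393) and 0.228 (0.163 to 0.314). Ifi207 was 29.4, 4.45 and 8.20, with ratios of 0.151 and 0.279. The 3 ranked members (Ifi202b, Ifi203 and Ifi204) each reached the minimum level in the control alone, so a count of lower members is not given. The Ifi202b ratios, 0.288 and 0.381, rested on the 1 control cell named above, without which the control level was 34.5 CPM, and were 1.07 and 1.58 with no doublets removed. The 8 papilla or sheath markers summed to 6584, 6031 and 6238 CPM, and the macrophage markers to 33.8, 4.11 and 6.02.

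These dermal classes lie outside the cells in which the labels place the knockout. Library and genotype cannot be told apart in them, as in the epithelium.

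Ifi207, a nuclear family member, was highest in immune cells. In cluster 24 it was 585, 610 and 441 CPM, over 109, 7 and 113 cells. Of the 26 UMIs at 2 weeks 18 came from 1 cell. The 3-week ratio was 0.754 (0.658 to 0.862). In the same cluster Ifi204 was 161, 46.9 and 112, and Ifi203 142, 23.4 and 84.6. The 2-week values of these genes rest on 2 and 1 UMIs. Among the members of cluster 24 that reached the minimum level in both libraries, Ifi203 alone was at least 1.5-fold lower at 3 weeks, as were 18.4% of ranked genes. Ifi202b was ranked through its control level alone. Its UMIs came mostly from 1 cell in the control and the 3-week library (114 of 163 and 32 of 37).

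Langerhans-like cells, the dendritic cells of the epidermis, had Ifi207 at 245, 230 and 106 CPM. Ifi207 UMIs were found in 78.3%, 62% and 54.9% of these cells, and in 0 of 105 T or natural killer-like cells of the control, which allows a level of up to 6.46 CPM. The ratios were 0.936 (0.722 to 1.21) and 0.434 (0.351 to 0.536). Ifi203 was 106, 40.2 and 27.2, but 53 of the 75 control UMIs came from 1 cell, without which the control level was 32.0. Ifi203 was ranked through its control level alone in both comparisons, so a count of lower members is not given. At 3 weeks Ifi207 was at least 1.5-fold lower, as were 20.4% of ranked genes. Ifi202b was at least 1.5-fold higher at 3 weeks, as were 14.5% of ranked genes. The 6 Langerhans markers summed to 52299, 41852 and 40505 CPM.

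Ifi204 and Ifi207 were low in keratinocytes. Ifi204 was 9.37, 4.59 and 1.88 CPM in basal-like cells, from 105, 77 and 45 UMIs, with ratios of 0.490 (0.360 to 0.663) and 0.200 (0.138 to 0.286). In suprabasal-like cells it was 5.20, 2.64 and 0.865, with ratios of 0.507 (0.339 to 0.760) and 0.166 (0.102 to 0.266). Ifi207 was 2.14, 0.894 and 0.208 in basal-like cells. Over all epithelial cells its ratios were 0.261 (0.165 to 0.405) and 0.226 (0.142 to 0.353). So in the epithelium the sparse members were lower in the same libraries as Ifi202b, at levels that ranking did not reach. Bulge-like cells held at most 3 UMIs of Ifi204 or of Ifi207 in a library, at or under the limit that a count of 0 allows.

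**Figure D4:**
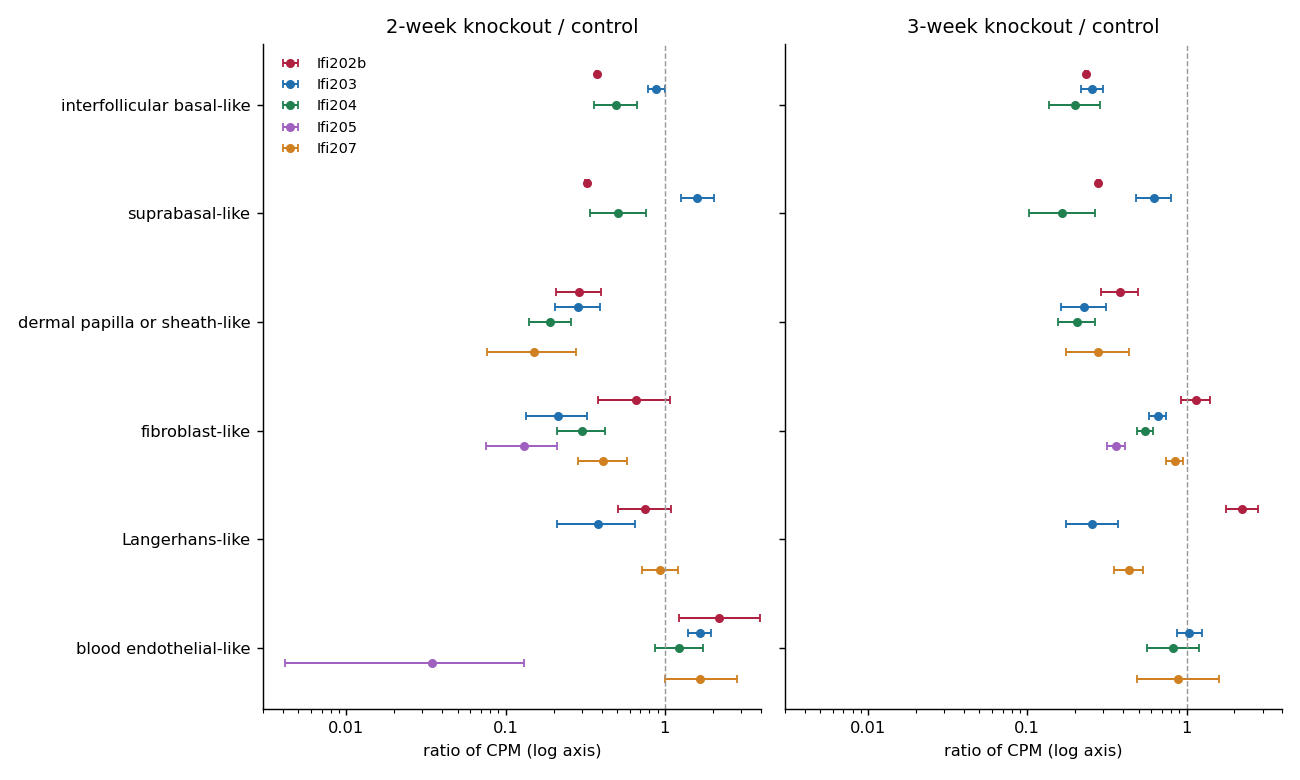
Ratio of CPM in each knockout library to the control library for the 5 members in 6 cell classes, on a log axis; bars are 95% intervals covering counting error, the dashed line marks a ratio of 1, and pairs with under 50 UMIs or a knockout count of 0 are left out. In basal-like cells the Ifi202b, Ifi203 and Ifi204 ratios at 3 weeks are 0.235, 0.254 and 0.200; in blood endothelial-like cells Ifi203 lies at 1.65 and 1.04.

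The other 8 family genes in the files gave 5597 UMIs. Mndal was lower in knockout epithelium, at 8.90, 2.70 and 2.27 CPM, with ratios of 0.303 (0.257 to 0.356) and 0.255 (0.215 to 0.301). Of its 3′ stretches 18.7% are shared with Ifi203, Ifi203-ps, Ifi205 or Ifi211. Ifi209 in basal-like cells was 6.61, 2.98 and 1.54, with ratios of 0.451 and 0.234, though 63.4% of its 3′ stretches are shared with Ifi214. Aim2, the DNA sensor that p202 restrains, did not share this direction in basal-like cells, at 2.77, 4.71 and 3.38 CPM from 31, 79 and 81 UMIs. Its ratios there were 1.70 (1.11 to 2.67) and 1.22 (0.798 to 1.91), and over all epithelial cells 0.847 (0.676 to 1.06) and 0.787 (0.628 to 0.987). Ifi206, Ifi208, Ifi213 and Ifi214 had 13 to 34 UMIs each in all 3 libraries, too few to compare.

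Genes that respond to interferon were read in basal-like cells beside the family. Of 34 listed genes in the files 7 were ranked, and 3 were at least 1.5-fold lower and 0 higher in both comparisons. Over all ranked genes 6.15% and 15% were at least 1.5-fold lower, and 3.73% and 5.29% higher. Of the 5 listed genes that reached the minimum level in both libraries 1 was lower, Ifi27l2a. The median log2 ratio of all 7 ranked listed genes was -0.57 at 2 weeks and -0.41 at 3 weeks, against -0.03 and -0.11 over all ranked genes. It includes 2 genes ranked through the control alone, which are more likely to be low, so it is a description only. Ifi27l2a was 554, 282 and 127 CPM, and Bst2, a membrane protein that tethers virions, 75.6, 30.6 and 18.3. Ifih1, a sensor of double-stranded RNA, was 50.2, 22.4 and 20.3. Of the listed genes Ifi27 stayed level at 163, 161 and 190, and Ifitm3 was 1181, 954 and 888. Tap1, a peptide transporter, was 104, 71.2 and 79.4. The other 2 of the 7 genes, Bst2 and Ifih1, reached the minimum level in the control alone.

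In cluster 4, where Ifi203 was highest among keratinocytes, 9 genes of the interferon-response list were ranked, and 7 of them lay at least 1.5-fold lower in both comparisons, against 1.96% and 5.17% of all ranked genes. Of the 9, 4 reached the minimum in the control alone; of the other 5, 3 were lower. The median log2 ratio over all 9 was -1.10 and -1.46, against -0.02 and -0.09 over all ranked genes. It includes the 4 genes ranked through the control alone, which are more likely to be low, so it is a description only. No median was taken over the other 5. Bst2 was 92.9, 32.3 and 14.7 CPM there, and Isg15, a ubiquitin-like modifier, 67.2, 17.7 and 15.3. In blood endothelial-like cells 24 listed genes were ranked, with median log2 ratios of 0.02 and -0.13, against 0.05 and 0.05 over all ranked genes. In suprabasal-like, fibroblast-like and dermal papilla or sheath-like cells the list medians lay under those of all ranked genes in both comparisons, with the same limit from ranking.

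Of 25 interferon ligands, receptors and transducers, 9 were ranked in basal-like cells. In each comparison 3 of the 9 were at least 1.5-fold lower and 2 higher. Over all ranked genes 6.15% and 15% were as low, and 3.73% and 5.29% as high. Of the 5 that reached the minimum level in both libraries 0 were lower and 2 were higher in both comparisons. The other 4 were ranked through their control level alone, among them Jak2 and Irf9. Jak2, a kinase of the type II receptor, was 70.6, 42.4 and 27.1 CPM, and Irf9, a subunit of a factor that binds the ISRE, 52.5, 33.8 and 26.6. Irf1, which is itself induced by interferon, was 79.9, 168 and 140, and Socs3, a feedback inhibitor, 107, 227 and 265. Ifngr1, the type II receptor chain, was 161, 138 and 193.

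Of 14 DNA-sensing and inflammasome genes 2 were ranked in basal-like cells. Pycard was 89.4, 110 and 140 CPM and Casp4, an inflammatory caspase, 61.9, 55.7 and 55.7. Of 10 neighbours of the family on chromosome 1 only Tagln2, an actin-binding protein, was ranked, at 540, 498 and 584. In basal-like cells this nearby gene differed between libraries by less than 1.5-fold. A ranked neighbour lay past that fold in at least 1 comparison in fibroblast-like, blood endothelial-like and dermal papilla or sheath-like cells. The value of Tagln2 thus describes basal-like cells only.

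The genes whose levels ran most like those of Ifi202b over the 21 class-by-library points, among 5205 genes, were Wdr36 (r 0.97), Trim16, Serpinb2, Rars, Klf5, Pcgf5, Nlrc5, Stxbp3, Efhd2 and Abcc1. In basal-like cells these 10 genes were 1.11- to 2.04-fold lower at 2 weeks and 1.23- to 2.65-fold lower at 3 weeks. The basal-like levels were among the points by which these genes were picked, so this direction is no separate finding. Wdr36, a ribosome biogenesis factor, was 86.6, 71.6 and 66.6 CPM there. Serpinb2, an inhibitor of urokinase, was 7756, 3800 and 2930 CPM in basal-like cells. Klf5, a transcription factor of basal epithelium, was 1164, 837 and 702. Nlrc5, an interferon-induced activator of MHC class I genes, was 46.8, 32.6 and 32.4. The basal keratins were less alike, with r of 0.59 for Krt14 and 0.51 for Krt5. These values describe 21 points that share libraries and carry no test.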

How the data were processed

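Back skin cells were freed with collagenase I (2.5 mg/ml) and 0.25% trypsin and sequenced as 10x 3′ libraries, per the labels' protocols. The deposited matrices hold raw counts of UMIs per gene and barcode, made by the authors with Cell Ranger 6.1.2 on mm10, per the submitters' processing notes. The files held 5621, 11144 and 11186 barcodes for the control, 2-week and 3-week libraries.

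Cells with under 500 genes or at least 15% mitochondrial counts were left out, and Scrublet (scanpy 1.11.5) removed 110, 284 and 394 doublets (2.19%, 2.88% and 3.94%). The libraries were clustered together with 2000 variable genes, 30 principal components, 15 neighbours and Leiden resolution 1, without batch correction. Clusters were named from fixed marker lists when at least 3 markers were detected; the naming thresholds were set after the clusters were seen. UMIs were summed per class and library and given per 1000000 UMIs of that class (CPM). Levels have exact Poisson, shares exact Clopper-Pearson and ratios exact conditional binomial 95% intervals. The scripts were tested on simulated data. A ranked gene had at least 50 UMIs over 2 libraries and 50 CPM in 1 of them. A count of 0 was taken to allow 3 counts.

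The members and gene lists were chosen with earlier results of these data known. Named genes were the 5 members, the other HIN-200 genes, up to 3 lowest and 3 highest ranked genes of each list in basal-like cells, and the 10 genes most like Ifi202b by Pearson r of log2(CPM + 5). Examples in cluster 4 and Ifngr1 lie outside that rule and were chosen after their values were seen. A gene that the rule names is not reported here. Promoter windows came from RefSeq (GRCm38.p6) and gene positions from GENCODE vM21. TMM factors came from edgeR 4.0.16 and served as an alternative scaling. No sample was left out. The labels do not say which animals the libraries came from.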

Additional observations from a re-analysis of the deposited data

Results flagged for a closer look

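In 7 instances a member's ratio to control in 1 cell class had an interval on the other side of 1 from that of other classes. None of these differences between classes was tested, since each group was 1 library. Ifi202b was lower in 8 classes and higher in blood endothelial-like cells at 2 weeks (ratio 2.17), where 38 of 41 UMIs came from 1 cell. At 3 weeks it was higher in Langerhans-like cells (2.23), Schwann-like cells (3.17) and lymphatic endothelial-like cells (5.29), against 8 classes in which it was lower. Keratin counts were higher in the 3-week library in each: 850 against 3550 CPM in Schwann-like and 132 against 2861 in lymphatic endothelial-like cells, the latter with 16 and 47 cells. With no doublets removed the Langerhans-like ratio was 0.989 and the Schwann-like ratio 0.556, both under 1. The part of keratinocyte RNA in these ratios was not tested.

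Ifi203 was higher at 2 weeks in suprabasal-like cells (1.60) and blood endothelial-like cells (1.65), and lower in 5 other classes. The suprabasal-like ratio was 0.697 at clustering resolution 2, and 57 of its 294 UMIs came from 1 cell. Ifi207 was higher at 2 weeks in blood endothelial-like cells (1.67), and lower in 2 other classes.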

How the results depend on the processing

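The Ifi202b ratios in epithelial and basal-like cells stayed under 1 in every alternative run. In epithelial cells they ranged from 0.289 to 0.324 at 2 weeks and from 0.290 to 0.310 at 3 weeks. No run gave the epithelial classes equal weight. At 2 weeks the epithelial ratio was 0.317 with TMM factors, 0.289 as a mean over cells and 0.300 after thinning to 2000 UMIs; at 3 weeks it was 0.293 with each library clustered on its own, 0.304 as a mean over cells and 0.310 after thinning. In basal-like cells the ratios ranged from 0.355 to 0.563 and from 0.223 to 0.359. The 2-week value was 0.395 with no doublets removed, 0.355 with TMM factors, 0.494 with clusters weighted equally and 0.563 with libraries clustered on their own, where the 2-week library had 1 basal-like cluster of 784 cells. The 3-week value was 0.256 with no doublets removed, 0.252 with libraries clustered on their own, 0.223 with TMM factors, 0.240 as a mean over cells and 0.359 with clusters weighted equally. Clustering without the family and the interferon-response genes, chosen after seeing the data, gave 0.323 and 0.290 in epithelial and 0.377 and 0.236 in basal-like cells.

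Some ratios of other members or classes changed direction. With no doublets removed Ifi202b was 1.07 and 1.58 in dermal papilla or sheath-like cells at 2 and 3 weeks, 0.989 in Langerhans-like and 0.556 in Schwann-like cells at 3 weeks, and Ifi203 was 1.001 in basal-like cells at 2 weeks. After thinning Ifi203 was 1.04 in basal-like cells at 2 weeks and 1.77 in suprabasal-like cells at 3 weeks, and Ifi207 was 1.14 in fibroblast-like cells at 3 weeks. At resolution 2 Ifi203 was 0.697 in suprabasal-like cells at 2 weeks. The cause was not tested. Thinning moved 28 of 62 ratios outside their counting interval and turned the direction of 3 more, against 4 and 0 of 64 with TMM factors. In basal-like cells the share of genes at least 1.5-fold lower was 6.19% and 10.7% with a minimum of 10 UMIs, and 8.53% and 19.6% with TMM factors. Of the 10 genes most like Ifi202b 8 were shared with an offset of 1. No paired analysis was possible because each group was 1 library and the labels carry no replicate numbers. Depth limits Ifi204, Ifi205 and Ifi207 in keratinocytes, and the 2-week values in fibroblast-like cells and cluster 24.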
